A study of Canis lupus familiaris with 6 samples.

Results

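GNAS, PTH and PTH1R form the entry to parathyroid hormone signalling, and they are 3 of the 1437 genes with a named probe on the dog arrays, read by 7 of 43603 probes. They were listed with their values in these arrays already known. GNAS was lower and PTH higher with tetracycline at each time, so the difference between the arms chose them and is given as a description, with no test. Probes were taken by the RefSeq transcript that the array lists for them: NM_001003263 for GNAS with 5 probes, NM_001003302 for PTH with 1 probe and NM_001003155 for PTH1R with 1 probe. Neither probe sequences nor probe positions within a transcript were used here.

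The cells were MDCK-II, an epithelial line from dog kidney tubule, carrying a short hairpin RNA, switched on by tetracycline, against scribble, a scaffold protein of cell polarity. The arm with Tet received tetracycline at 5 µg/ml 6 h after plating, and the arm without Tet carried the same hairpin construct and received none. RNA was taken 30, 45 and 60 h after that point, with 3 wells mixed into 1 Cy3-labelled sample and 1 array for each arm and time, so no condition has a replicate array. The labels do not say whether the line is 1 clone or several, and no arm holds tetracycline without the hairpin, so an effect of the drug and of the hairpin cannot be told apart.

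Each array had 43803 non-control spots, of which 64.3% to 68.8% exceeded background clearly by the scanner program's call, named well above background here, and 0 were saturated. The scribble transcript has no named probe, so the knockdown itself was not analysed here. All 8 epithelial markers with a named probe, among them CDH1, KRT19 and OCLN, were well above background on all 6 arrays. Of these 8, 5 were lower with Tet at all 3 times and 1 was higher, beside 21.5% and 28.0% of all tested features (defined below). KRT19, the brightest, differed by -0.28, -0.34 and -0.13 in log2 (with minus without Tet) at 30, 45 and 60 h. OCLN differed by 0.11, 0.13 and 0.16, and CDH1 by -0.01, 0.07 and 0.51. The largest differences were those of MUC1 at -0.37, -0.74 and -0.53 and of CLDN2 at 0.06, -0.38 and -1.64. TJP1, CGN and ATP1B1 were lower at each time. The summed level, to which KRT19 adds most, was 128.0 to 139.1 times the 75th-percentile signal, against 157.7 to 160.9 times without Tet. The 5 fibroblast markers summed to 3.60 to 3.74 times with Tet and to 3.26 to 3.76 times without Tet. Of these 5, only COL1A1 was tested and higher with Tet at all 3 times, by 0.26, 0.70 and 0.82 on the brightest of its 4 probes. On 1 of its probes the mean difference was below 0. No tested fibroblast marker was lower at all 3 times, and DCN was well above background on no array. The part of these shifts in the results below was not tested.

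As background, parathyroid hormone, encoded by PTH, is made mainly by the parathyroid glands and acts on bone and kidney. Its receptor PTH1R, which also binds the related peptide PTHLH, couples to the stimulatory G protein. GNAS encodes the alpha subunit of that protein, which activates adenylyl cyclase and so raises cyclic AMP (cAMP) downstream of many receptors. In the kidney tubule the hormone limits phosphate uptake, favours calcium uptake and activates vitamin D. GNAS is an imprinted locus in human and mouse, where several first exons are spliced to shared downstream exons. The 5 probes are all listed under the same dog transcript, and which forms each of them detects was not analysed here.

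GNAS was lower with Tet on every probe at every time, and the difference was larger at 60 h than at 30 h on all 5. A level is given as log2 of the background-subtracted signal minus that array's 75th percentile, and a difference as the level with Tet minus the level without Tet. The brightest probe, A_11_P211914, had levels of 4.68, 4.77 and 4.70 with Tet at 30, 45 and 60 h, against 5.42, 5.56 and 5.54 without Tet. All 3 arrays with Tet lay below all 3 without Tet, with a fold difference of 1.67 for the 30 h pair, 1.73 for the 45 h pair and 1.79 for the 60 h pair. The mean difference was -0.79 ± 0.05 (SD over 3 times). In RNA from whole wells, fewer cells with the transcript and less of it per cell cannot be told apart.

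Probe A_11_P0000019977 had levels of 3.13, 3.19 and 3.095 with Tet, against 4.17, 4.33 and 4.45 without Tet, a mean difference of -1.18 ± 0.16. Probe A_11_P172908 had 2.85, 2.81 and 2.83 with Tet, against 3.89, 4.13 and 4.22 without Tet, the largest mean difference of the 5 at -1.25 ± 0.19. On both probes the arms did not overlap, and the fold at 60 h was 2.55 and 2.63. The next probe, A_11_P201328, stood at 0.05, 0.09 and 0.05 with Tet and at 1.03, 1.26 and 1.42 without Tet (mean difference -1.17 ± 0.19). The dimmest, A_11_P209863, stood at -2.31, -2.20 and -2.37 with Tet and at -1.60, -1.37 and -1.19 without Tet (-0.91 ± 0.24). These probes too had all arrays with Tet below all arrays without Tet.

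**Figure D1:**
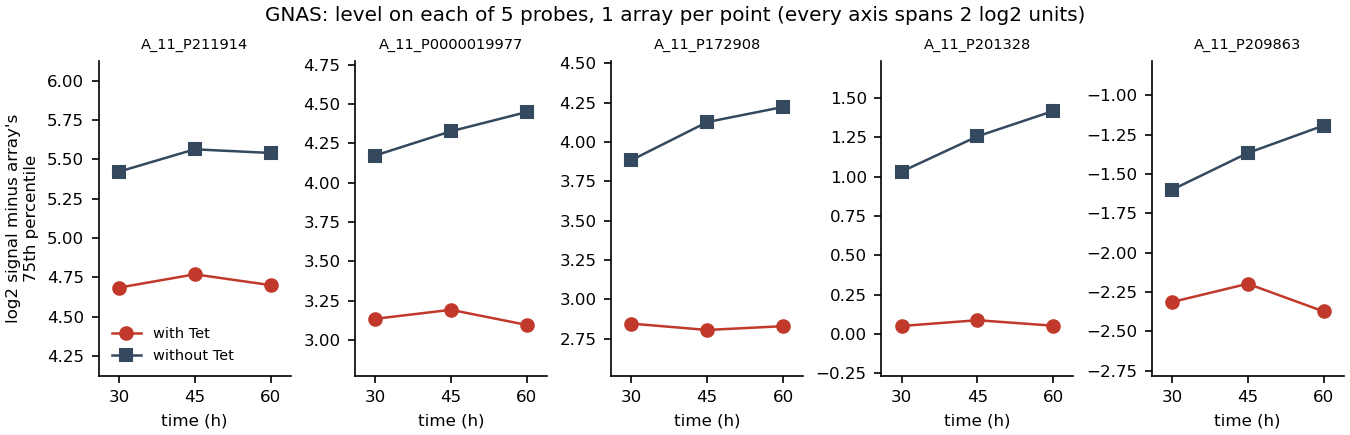
Level of GNAS (log2 signal minus the array's 75th percentile) against time in hours on each of its 5 probes, from the brightest at left to the dimmest at right, with Tet (red circles) and without Tet (dark squares), 1 array per point. On every probe the red line runs below the dark one, nearly level at -0.06 to 0.02 from 30 to 60 h, while the dark line ends 0.12 to 0.41 above its start.

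The probes differ 124-fold in mean signal, from 180.3 to 22035 linear units, and all shared the direction of the difference. The error that the scanner program puts on a single spot was 10.0% to 10.2% of the signal for all 30 GNAS values, which covers the reading of a spot and not the spread between cultures. Over the 6 arrays the probe pairs correlated at 0.983 to 0.999 (Pearson, 10 pairs), and after each arm's mean was removed, at 0.72 to 0.997. These correlations describe probes read on the same arrays and labelled samples. For context, among 27581 tested features (those well above background on all 3 arrays of an arm) 21.5% were lower with Tet at all 3 times. All arrays with Tet lay below all arrays without Tet for 10.2%, and 0.794% were lower by at least 0.58 at each time. The rule used this contrast, so nothing about GNAS is read from these shares.

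The size of the difference varied among the probes. The brightest and the dimmest gave the smallest differences, at -0.74 and -0.71 at 30 h. The 3 of middle brightness lay between -1.04 and -0.98 at that time. At 60 h the brightest stood apart at -0.84 while the other 4 lay between -1.39 and -1.18. The median over the probes was -0.98 at 30 h, -1.13 at 45 h and -1.35 at 60 h, with an SD over probes of 0.16, 0.23 and 0.23. In fold terms, GNAS was 1.97-, 2.20- and 2.55-fold lower with Tet by that median. With the mean of all probes in place of the brightest, the mean difference was -1.06.

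The widening came with a higher level at 60 h than at 30 h without Tet, by 0.12 to 0.41 over the 5 probes. With Tet the corresponding change was -0.06 to 0.02. Over all tested features the median change was 0.01 with Tet and 0.02 without Tet. No test was made of this contrast either. The change without Tet was above 0 on all 5 probes under each of the 5 scalings tried, though only by 0.01 to 0.30 with arrays scaled by their median, where all features shifted by -0.09. With Tet, all 5 probes stood below 0 under that scaling (-0.10 to -0.03) and ran from -0.04 to 0.11 with normexp background correction. The difference between the arms was wider at 60 h than at 30 h on all 5 probes under each scaling. It widened at both steps on all 5 under 75th-percentile scaling, and on 3 of them under median scaling. The difference fell at both steps for 27.6% of all tested features, and for 10.2% it also began below 0. On probe A_11_P172908 both later arrays lay below the 30 h array with Tet and above it without Tet, and 17.6% of all tested features moved in opposite ways in the arms at both later times, in either direction.

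**Figure D2:**
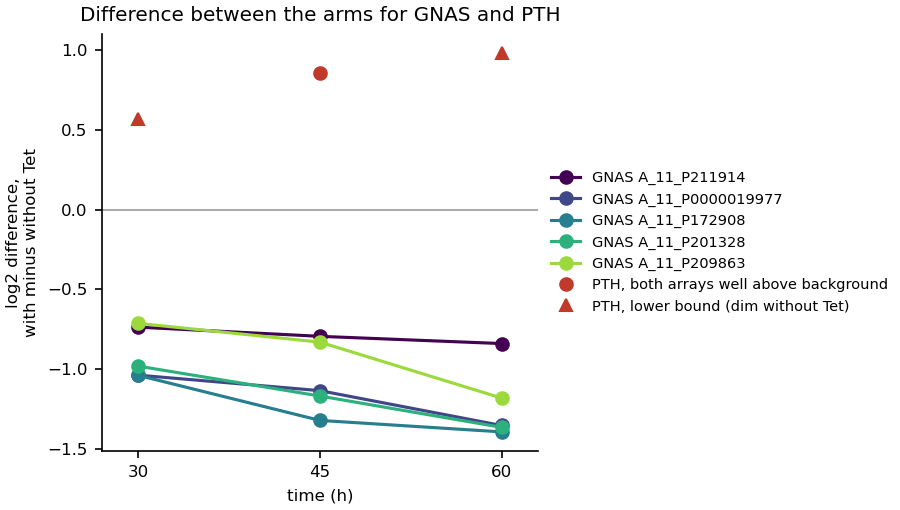
Difference between the arms (log2, with minus without Tet) against time in hours for the 5 GNAS probes and for PTH, 1 pair of arrays per point. GNAS runs from between -1.04 and -0.71 at 30 h to between -1.39 and -0.84 at 60 h. PTH lies above 0 at each time, with bounds drawn as triangles where the array without Tet was dim. At 60 h the PTH bound equals the plain difference of its spots.

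The 30 h pair of arrays lies on slide 1 and the 60 h pair on slide 2, while the 45 h pair has its array with Tet on slide 2 and its array without Tet on slide 1. Scans followed the slides. For a change from 30 to 60 h, slide and time cannot be told apart. The difference of the brightest GNAS probe within slide 1 (-0.74) and within slide 2 (-0.84) enclosed its value across the slides (-0.79). For PTH the difference was at least 0.57 within slide 1 and 0.98 within slide 2, where the arrays without Tet were dim, and 0.85 across the slides. The 0.98 is the plain difference of the spots.

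PTH, the hormone gene, was higher with Tet at each time, at signals close to the limit of the array. Its processed signal was 20.0 ± 3.3, 28.1 ± 3.7 and 21.1 ± 3.5 units with Tet at 30, 45 and 60 h (scanner program's error of 1 spot), against 12.2 ± 3.5, 15.5 ± 2.7 and 10.8 ± 2.6 units without Tet. Every array with Tet was above every array without Tet, and the 45 h array was the highest of each arm. The spot was well above background on 3 of 3 arrays with Tet but on 1 of 3 without Tet, so PTH entered the tested features only through the arm in which it was high. Where the array without Tet was dim, only a bound can be given. That bound sets the array with Tet against the higher of the dim spot and the array's lowest signal well above background.

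With Tet, PTH was at least 1.48-fold higher at 30 h. At 60 h the dim spot was itself above the array's lowest signal well above background. The value of 1.98-fold at that time is therefore the plain ratio of the spots, with no allowance for the dim one. At 45 h, where both arrays measured it, PTH was 1.81-fold higher with Tet. For context, 28.0% of tested features were higher with Tet at all 3 times, 11.9% had all arrays with Tet above all arrays without Tet, and 0.355% were higher by at least 0.58 at each time. The rule used this contrast, and PTH was detected mainly in the arm where it was high, so nothing about PTH is read from these shares. At such signals the background correction weighs on the size: with normexp and an offset of 50 units, which is larger than any PTH signal here, the difference at 45 h was 0.22 in place of 0.85.

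PTH1R, the receptor gene, was well above background on 0 of 6 arrays, so no fold is given. Its processed signal was 2.5, 5.8 and 11.9 units with Tet at 30, 45 and 60 h, against 3.2, 2.1 and 5.2 units without Tet. The arms overlapped, since the 30 h array with Tet lay below 2 of the arrays without Tet. The scanner program's error ran from 24.1% to 99.8% of these signals. By its weaker criterion, a signal above 0 that is significant against the local background, the spot passed on 2 of 3 arrays with Tet and on 1 of 3 without Tet. The highest of the 6 was the 60 h array with Tet. An absolute level of the receptor transcript cannot be drawn from 1 dim probe.

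**Figure D3:**
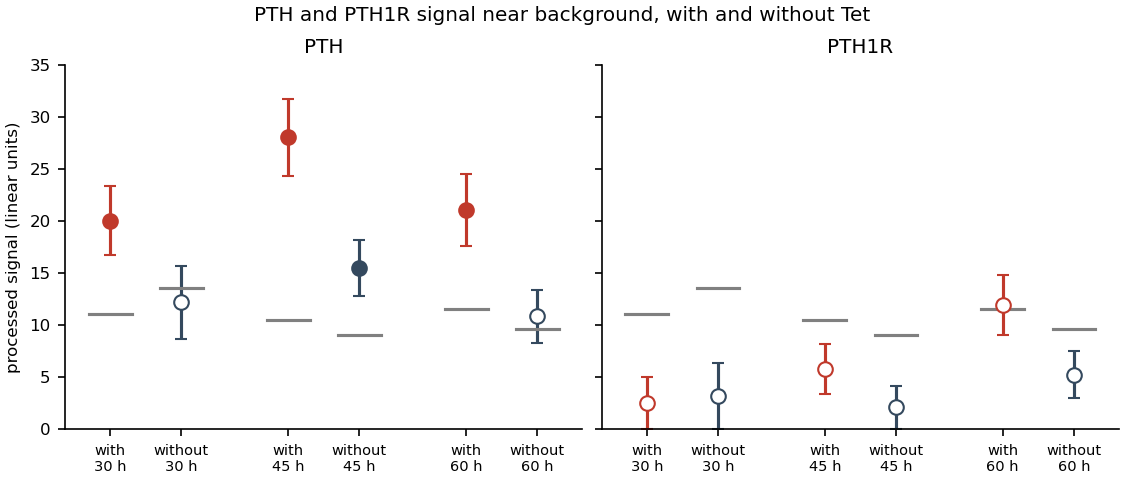
Processed signal (linear units) of the PTH probe at left and the PTH1R probe at right on each array, red with Tet and dark without Tet, with the scanner program's error of 1 spot as bars. Filled points are well above background, open points are not, and grey lines mark each array's lowest signal well above background. PTH lies at 20.0 to 28.1 with Tet against 10.8 to 15.5 without Tet, and all 6 PTH1R points are open.

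Time in culture, the contrast of 60 h with 30 h over both arms, played no part in choosing the genes and was tested with limma. GNAS averaged 5.12 at 60 h and 5.05 at 30 h on its brightest probe (2 arrays each), a change of 0.07 ± 0.08 (SE, limma, adjusted p = 0.618). Its other 4 probes changed by 0.12 to 0.19, with adjusted p between 0.341 and 0.509 in limma's fit of all probes. None of the GNAS probes passed an adjusted p of 0.05, while 8.15% of the 27581 features did (3.94% rose and 4.21% fell). With 1 array of each arm and time, these p-values measure the spread of the change over the arms, which limma draws toward that of all features. For GNAS this contrast averages the arms, of which only the arm without Tet had a higher level at 60 h on all 5 probes. For PTH, the arrays without Tet at both times were dim, so the fitted change of 0.07 (limma, adjusted p = 0.658) rests in part on spots not well above background, and nothing is read from it. On the arrays with Tet its level was -4.79 at 60 h and -4.99 at 30 h. PTH1R was dim and was not tested.

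The rest of the pathway was read from 202 listed gene symbols for hormones, receptors coupled to the same G protein, other G protein subunits, cyclases and phosphodiesterases, cAMP effectors, desensitisation, kidney targets of the hormone and genes induced by cAMP. Of these 51 had a named probe, 31 were tested, 4 were well above background on some arrays only and 16 on none. With limma, 0 of the 31 passed an adjusted p of 0.05 between the arms, as did 0 of all 27581 features. At an unadjusted p under 0.05 stood 5 of the 31, 1 higher and 4 lower with Tet, or 16.1%, against 23.3% of all features (12.4% higher and 11.0% lower). At all 3 times 8 of the 31 were lower with Tet, beside 21.5% of all features, and 4 were higher, beside 28.0%. These p-values measure the spread of a difference over the 3 times, which limma draws toward that of all features. The median difference of the 31 was -0.01, and that of all features was 0.01. Values of single genes below are differences in log2 at 30, 45 and 60 h.

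Among the hormone ligands, ADM, which encodes the vasodilator adrenomedullin, stood at -0.48, -0.39 and -0.61 (limma, unadjusted p = 0.00241, adjusted p = 0.114). CRH, corticotropin-releasing hormone, stood at 0.17, -0.40 and 0.06 on its brighter probe. The other probe, well above background on 4 of 6 arrays, had the opposite sign at each time, at -1.21, 2.08 and -0.50 with dim spots at their own signal. The other 7 ligands with a named probe did not meet the detection needed for a test. AVP, the vasopressin gene, and the glycoprotein hormone genes TSHB and CGA were among the 5 that were dim on all 6 arrays.

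Of 9 tested receptors that raise cAMP, 2 were lower with Tet at all 3 times and 1 was higher, beside 21.5% and 28.0% of all features. The prostaglandin E2 receptor gene PTGER4 stood at -0.32, -0.39 and -0.07, and its relative PTGER2 at -0.21, -0.12 and 0.06. The calcitonin receptor gene CALCR stood at -0.22, 0.21 and -0.04. ADORA2B, an adenosine receptor tested through the arm without Tet, stood at -1.22 at 30 h and at 0.74 at 45 h. At 60 h its spot with Tet was dim, and the plain ratio of the spots was 1.86-fold lower with Tet. AVPR2, the vasopressin receptor of the collecting duct, was singled out after its values were seen because its probes disagree: the brighter one stood at 0.03, 0.03 and 0.04, and the other one, well above background on 5 of 6 arrays, at -0.31, -0.54 and -0.96.

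Of 7 tested G protein subunits other than GNAS, 1 had an unadjusted p under 0.05, beside 23.3% of all features. GNB1, a beta subunit, stood at 0.14, 0.16 and 0.33 on its brightest of 4 probes (limma, unadjusted p = 0.0463, adjusted p = 0.208), with 2 of its probes below 0 at 30 h. GNAQ, the alpha subunit that acts on phospholipase C, stood at -0.32, 0.03 and 0.00, and the gamma subunit GNG10 at -0.01, -0.10 and -0.14. The adenylyl cyclase ADCY6 stood at -0.11, -0.08 and -0.13 and the phosphodiesterase PDE1A at -0.48, 0.60 and 0.32. With the mean of its 2 probes in place of the brighter one, the mean difference of PDE1A was 1.02 rather than 0.15. The other probe was well above background on only 3 of 6 arrays and stood at 4.07, 0.52 and 1.08. The 1.02 thus rests in part on dim spots taken at their own signal, and no size is read from it. PRKACA, a catalytic subunit of protein kinase A, stood at 0.26, 0.03 and -0.01, and the cAMP-responsive transcription factor gene CREM at 0.13, -0.05 and 0.13. None of these passed the adjusted threshold.

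SLC9A3R1 encodes NHERF1, a scaffold that binds PTH1R and the phosphate transporter at the apical membrane. It was lower with Tet at each time, at -0.21, -0.52 and -0.24 (limma, unadjusted p = 0.0224, adjusted p = 0.167). The related scaffold gene SLC9A3R2 stood at -0.02, 0.12 and -0.01. Among kidney targets of the hormone, the calcium pump ATP2B1 stood at 0.14, 0.13 and 0.15 on the brightest of its 6 probes. On 1 of those 6 the mean difference was below 0. The sodium-calcium exchanger SLC8A1 stood at -0.27, 0.15 and -0.03 and the calcium-sensing receptor CASR at 0.08, 0.21 and -0.17.

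Of the genes induced by cAMP, PCK1, a gluconeogenic enzyme, stood at -0.13 and -0.03 at 30 and 45 h and at -1.42 at 60 h. Its 2 probes that were well above background on all arrays both gave -1.42 at that time (mean difference -0.53 ± 0.78, SD, limma, adjusted p = 0.364). The nuclear receptor NR4A1 stood at -0.22, -0.03 and -0.04 and the vasopressin-regulated water channel AQP2 at 0.00, -0.19 and -0.05. Their 60 h values were smaller than that of PCK1, and none of the 4 tested genes of this list had an unadjusted p under 0.05.

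**Figure D4:**
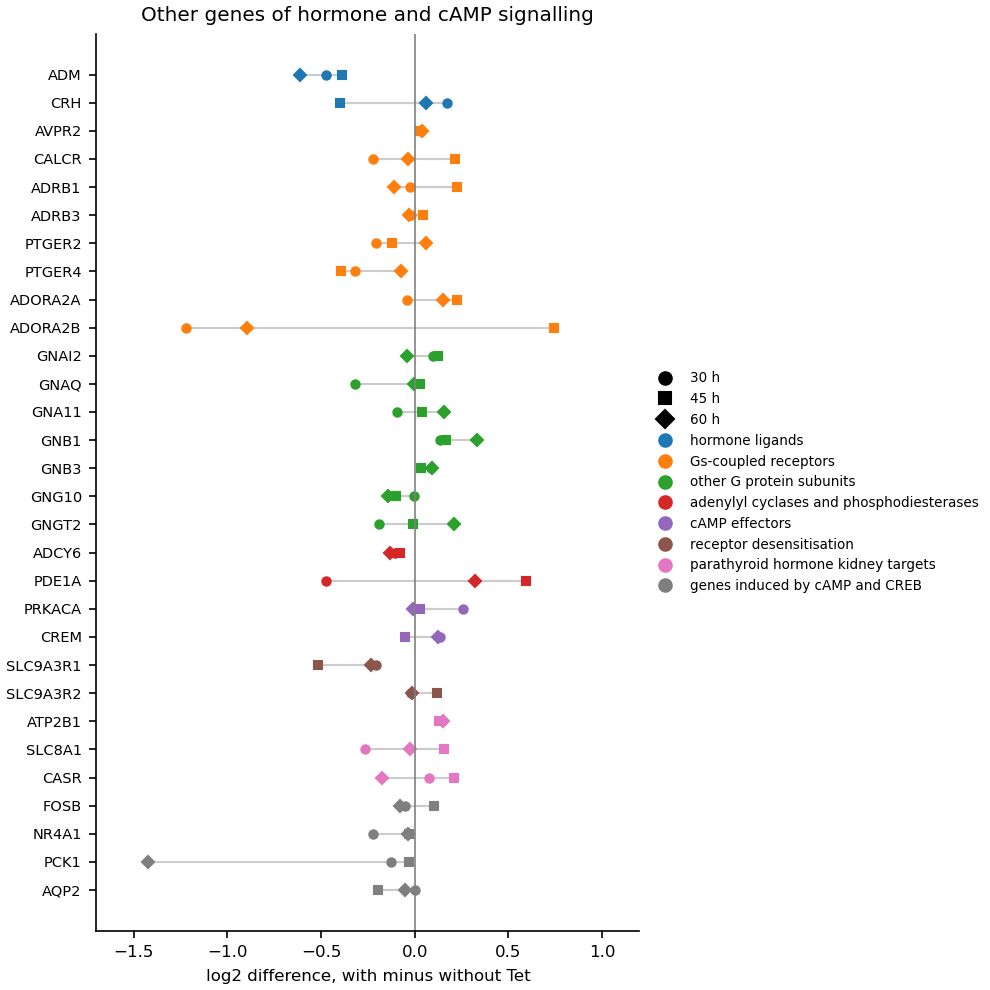
Difference between the arms (log2, with minus without Tet) at 30, 45 and 60 h for 30 tested genes of hormone and cAMP signalling, coloured by list, with 1 pair of arrays per point. Most points lie near 0, with ADORA2B and PCK1 reaching -1.22 and -1.42 at single times.

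With time in culture, ADM rose by 1.26 ± 0.10 (SE, limma, adjusted p = 0.0358) and PTGER2 fell by 0.67 ± 0.10 (SE, limma, adjusted p = 0.0413). These are 2 of the 31 genes. GNAQ stood at 0.63 (limma, adjusted p = 0.0535). It passed with the series matrix values (0.0483) and with detection required on all 6 arrays (0.0454), but under none of the other 13 of 15 alternatives. Its change was 0.52 with quantile normalization (limma, adjusted p = 0.0785) and 0.18 with normexp (0.187). PCK1 stood at 0.94 (limma, adjusted p = 0.181), NR4A1 at 0.27 (0.146) and CALCR at 0.26 (0.248). Over 21 genes taken by the rule for named genes the change ran from -0.67 to 1.26. Without any single array of 30 or 60 h, neither gene passed: without the 30 h array with Tet, the 30 h array without Tet, the 60 h array with Tet and the 60 h array without Tet in turn, adjusted p for ADM was 0.0750, 0.0845, 0.0628 and 0.0937, and for PTGER2 0.0941, 0.121, 0.0677 and 0.105 (limma). The count over all features was then 0, against 2249 with all arrays. Since the arrays of 30 h and 60 h lie on different slides, the slide was also fitted. This gave 1.099 for ADM and -0.62 for PTGER2, with an adjusted p of 0.935 for each in limma. That fit has fewer residual degrees of freedom, and only the 45 h pair separates slide from time in it. Nothing about the slide is therefore read from this adjusted p.

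Among 972 other named genes well above background on all arrays, the patterns over the 6 arrays most like that of the brightest GNAS probe included those of SLC25A14 (Pearson r = 0.974), TMEM47 (0.971), CCL20 (0.965), TAF12 (0.962) and SLC6A12 (0.951). Their differences varied in size: SLC25A14, a mitochondrial carrier, stood at -0.27, -0.30 and -0.34, whereas the chemokine CCL20 stood at -2.02, -2.81 and -3.01. A correlation above 0.9 was reached by 31 of the 972 genes. The patterns most opposed belonged to PPIL4 (r = -0.988), SELENOK (-0.983) and SEC61B (-0.975), which were higher with Tet by mean differences of 0.28, 0.21 and 0.23. These correlations rest on 6 arrays that share 2 arms and 3 times.

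Of the 5 protein-coding genes on each side of GNAS in the RefSeq gene order, only RAB22A, a Rab GTPase of endosomes, had a named probe, and it stood at 0.09, 0.28 and 0.34. It was chosen by its place in that order after the data were seen, and the order comes from another dog assembly than that of the arrays. None of the neighbours of PTH and PTH1R taken in the same way had a named probe.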

How the data were processed

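Per the labels, total RNA mixed from 3 wells was labelled with Cy3 and read on 6 one-colour arrays, 1 for each arm and time. The deposited scanner files hold linear spot intensity made by Agilent Feature Extraction 11.5.1.1 (the submitters' processing notes), background-subtracted and detrended by that program, with no scaling between arrays per the file headers. The authors' deposited series matrix holds the same intensity times 1 factor per array, 2.30 to 2.62, the origin of which the sources used here do not give.

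Outlier spots were left out, spots of a probe were averaged (19 probes dropped) and log2 intensity was set against each array's 75th percentile. Probes were named by unversioned accession in a RefSeq gene table of another dog assembly (2326 of 43603 probes). A gene's brightest probe stood for it. Features well above background on all 3 arrays of an arm were tested with limma 3.58.1 in R 4.3.3 (time and arm as terms, two-sided, Benjamini-Hochberg), with 2 residual degrees of freedom. The spread of each feature is drawn by limma toward that of all features, with 2.37 prior degrees of freedom. The p-values measure spread over times or arms, moderated in this way, not over cultures. The time term pairs the arms by culture time, which the labels give. The fits were checked on simulated data. Members and lists were chosen with earlier results of these data known. Of each pathway list, the text names up to 3 tested genes with the largest difference between the arms. It also names up to 2 with the largest change with time, any past the threshold, and 6 highest and 3 lowest correlations with GNAS. PTH1R, dim on 6 arrays, was not ranked so. For PTH, dim on 2 arrays, the highest correlations were ranked, but no gene is named from that ranking. Alternatives were other scalings, normexp on median spot signal (the files used have no mean signal), the series matrix, other detection filters, probe rules, priors and terms, and left-out arrays. The GNAS change within each arm under each scaling, the background shares for a widening or opposite change, the spot errors and the neighbouring genes were added after seeing the data. The number of arrays limits precision. Of the genes these rules name, 2 are not reported here, though counts over lists and features include them.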

Additional observations from a re-analysis of the deposited data

Results flagged for a closer look

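For 3 results the arrays of the arms moved in opposite directions from 30 h to both later times, each arm having 1 array per time, and the difference was not tested. GNAS probe A_11_P172908 changed from 30 to 60 h by -0.016 with Tet and by 0.34 without Tet, while its other 4 probes did not part in this way. PDE1A changed by 0.52 with Tet and by -0.28 without Tet. PRKACA changed by -0.11 with Tet and by 0.16 without Tet. Over all tested features, 17.6% moved in opposite ways in the arms from 30 h to both later times, in either direction.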

How the results depend on the processing

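With dim PTH spots at their own signal, the mean difference between the arms kept its sign for GNAS and PTH under every alternative run. It was -1.06 for GNAS with the mean of its probes and 0.21 for PTH with normexp, where the added offset of 50 exceeds its signals. Without each pair of arrays in turn it ran from -0.82 to -0.77 for GNAS and from 0.79 to 0.92 for PTH. Of the 31 pathway genes, 0 passed an adjusted p of 0.05 between the arms under all 13 alternatives. At an unadjusted p under 0.05 stood 5, against 3 with median scaling, 3 with no time term (no replicate block) and 2 to 4 without each pair. Over all features the adjusted count was 0, against 54 with normexp, 16 with a trended and robust prior, 32 with no time term (no replicate block) and 0 to 1 without each pair. The unadjusted count was 6432, against 4279 with no time term and 2130 to 7241 without each pair.

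For time in culture, the adjusted count was 2249 over all features and 2 in the pathway lists. It was 0 for both with no detection filter, with no arm term, with the slide as a term and without any 1 array of 30 or 60 h. The fits with the slide as a term and those without 1 array have fewer residual degrees of freedom. Over all features it was 3565 with normexp and 3771 with the trended prior.

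No gene named below passed the threshold in the change that turned sign. Changes of PTH with time rest in part on dim spots. For time, median scaling gave GNAS -0.011, PTH -0.0055, PRKACA -0.051 and AQP2 -0.041. Quantile normalization gave PTH -0.091, PDE1A -0.027, PRKACA -0.052 and AQP2 -0.029. Normexp gave PDE1A -0.081, PRKACA -0.016 and AQP2 -0.055. The mean of probes gave PDE1A -0.78, in part from dim spots of its other probe, and ATP2B1 -0.056. The slide term gave CRH 0.33, PTGER4 0.13, CALCR -0.079, PDE1A -0.55, CREM 0.0037, SLC9A3R1 0.16, SLC9A3R2 -0.050 and CASR -0.030. Without each array of 30 or 60 h in turn, the change ran for PTH from -0.024 to 0.17, PDE1A from -0.35 to 0.59, ADORA2B from -0.78 to 0.36, PRKACA from -0.10 to 0.15, AQP2 from -0.026 to 0.10 and PTGER4 from -0.21 to 0.076. Between the arms, CALCR stood at 0.00085 with median scaling and 0.015 with quantile normalization, and SLC9A3R2 at -0.026 with normexp. Without each pair in turn, the difference ran for CALCR from -0.13 to 0.088, GNAQ from -0.16 to 0.012, SLC8A1 from -0.15 to 0.064, CRH from -0.17 to 0.11, PDE1A from -0.076 to 0.46, SLC9A3R2 from -0.018 to 0.053 and CASR from -0.049 to 0.14. The causes were not tested. Signals near background limit PTH and PTH1R most.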
